A study of Mus musculus with 2 samples.

Results

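Mdm2-high cells, defined here as DMSO cells with at least 3 raw UMIs of Mdm2, numbered 301 of the 17878 kept cells of the DMSO library, or 1.68% (95% exact binomial interval 1.5 to 1.88). They were chosen by that count alone, so their Mdm2 level is a description of the rule and not a result. A UMI is 1 distinct tagged transcript, and kept cells had at least 500 genes and at most 10% of UMIs from mitochondrial genes. Both libraries together held 29466 kept cells. The Mdm2-high cells were compared with the 14012 DMSO cells that had 0 Mdm2 UMIs and with the 11588 kept dTAG13 cells.

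The cells came from embryoid bodies, floating aggregates in which stem cells begin to differentiate, grown from the male mouse embryonic stem cell line J1. Both groups share that line. The DMSO group received only the solvent for 2 days, and the dTAG13 group received for 2 days a small molecule that sends proteins carrying the FKBP12(F36V) tag to degradation. Which protein carries the tag, and whether the line is 1 clone, is not given in the labels; the series title names Tex10. Each group is 1 library, so library and treatment cannot be told apart, no difference has a replicate check, and no test was made. Intervals cover counting error only.

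Mdm2 is the E3 ubiquitin ligase that marks p53 for destruction, and Mdm2 is itself switched on by p53, which closes a negative feedback loop. Active p53 also switches on genes that stop the cell cycle, start apoptosis, repair DNA and change metabolism. In embryonic stem cells p53 protein is abundant, and its activation is linked to loss of the pluripotent state.

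p53 binds pairs of a short half-site. The promoters below hold a match to the p53 half-site decamer, which reads the same on both strands and was searched from 250 bases before to 50 bases after each start site in RefSeq's promoter table (GRCm38.p6). They are shown because Mdm2 chose the cells and the other genes were at least 2-fold higher in the Mdm2-high cells; the decamer is in capitals.
Mdm2, chr10:117710925-117710954, minus strand: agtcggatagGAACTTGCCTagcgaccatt
Cdkn1a, chr17:29090896-29090925, plus strand: tcctgggtggGGACTAGCTTtctggccttc
Cdkn1a, chr17:29090918-29090947, plus strand: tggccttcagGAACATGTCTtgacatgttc
Ccng1, chr11:40755452-40755481, minus strand: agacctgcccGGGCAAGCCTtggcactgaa
Gtse1, chr15:85859945-85859974, plus strand: gagcaagttgGGGCTTGCCTctgacttgcc
Polk, chr13:96519399-96519428, minus strand: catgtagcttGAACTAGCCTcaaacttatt
Rap2b, chr3:61364530-61364556, plus strand: gcgacgtactGGGCATGCTCggctggg

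Of the 74 genes on the p53 lists with Mdm2, 59 had an entry in that table and 17 of these (28.8%) held the decamer. The share over all promoters in the table was 2582 of 27025, or 9.55%. A match is a description of the letters in this window and not evidence of binding.

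The Mdm2-high cells carried more UMIs than the cells they were compared with. The 301 cells summed to about 2397690 UMIs, the 0-UMI cells to 89123500 and the dTAG13 cells to 91809000. The median Mdm2-high cell had 7271 UMIs and 2283 genes per cell, against 5912.5 and 1939 in the 0-UMI cells and 7072.5 and 2251 in the dTAG13 cells. The lowest and highest Mdm2-high cell had 2267 and 23383 UMIs, and 35 of them (11.6%) exceeded 2 times the median of their library, against 3.72% of the 0-UMI cells. Median mitochondrial shares were 2.61%, 2.46% and 1.97%. No doublet was removed. Of the kept DMSO cells, 64 carried a barcode that also occurs in the dTAG13 library; none of the 301 Mdm2-high cells did, which allows a share of up to 0.997%.

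In the DMSO library 14012 cells had no Mdm2 UMI, 2911 had 1 and 654 had 2. Among the Mdm2-high cells 190 had 3, 67 had 4, 23 had 5 and the remaining cells had 6 to 10. Summed over cells, Mdm2 stood at 455 CPM (counts scaled to a common total) in the Mdm2-high cells, 45.3 CPM in all DMSO cells and 364 CPM in all dTAG13 cells. At least 3 Mdm2 UMIs occurred in 5316 of the dTAG13 cells, or 45.9%, against 1.68% in DMSO. Cells just outside the threshold, with exactly 2 UMIs, stood at 263 CPM of Mdm2, and those just inside it, with exactly 3, at 394 CPM.

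**Figure D1:**
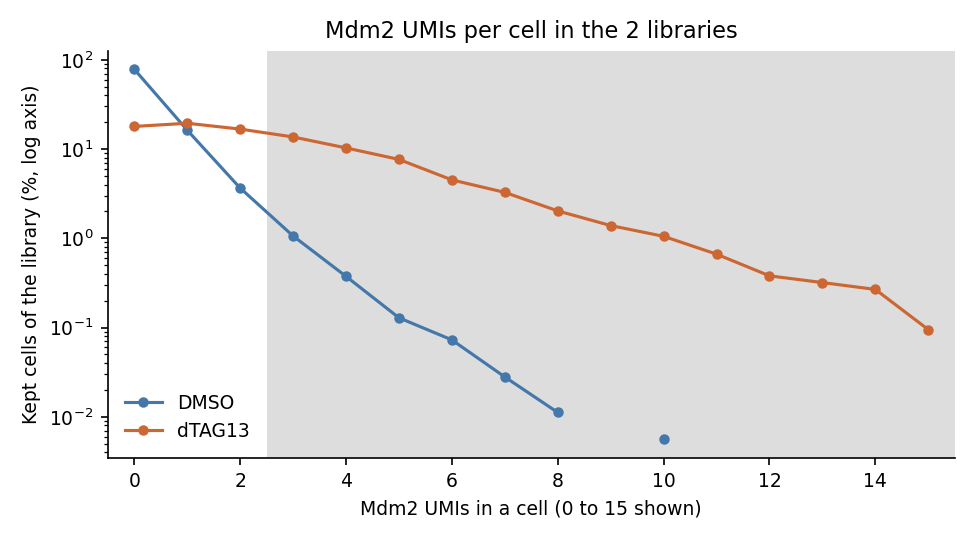
Share of kept cells (%) by number of Mdm2 UMIs in the cell, for the DMSO and the dTAG13 library. Cells with at least 3 Mdm2 UMIs made up 1.68% of DMSO cells and 45.9% of dTAG13 cells.

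Other p53 target genes stood higher in the Mdm2-high cells than in the DMSO cells with 0 Mdm2 UMIs. Of 73 target genes listed without Mdm2, 41 were measured, meaning at least 20 CPM in 1 or both groups, and 30 of these exceeded a 1.5-fold higher level while 0 were lower by that much. Over all 4832 measured genes, 5.01% were that much higher and 0.869% that much lower. The median log2 ratio of the 41 was 1.02, against 0.03 over all measured genes. Of the 41, 16 passed the level limit only through the Mdm2-high cells, where they had to be higher. Among the 25 with at least 20 CPM in the 0-UMI cells, 16 were at least 1.5-fold higher and the median was 0.73. Within 4 depth classes with about equal numbers of Mdm2-high cells, from the shallowest to the deepest, the median was 1.09, 1.19, 0.95 and 0.79. With the 0-UMI cells weighted to the depth of the Mdm2-high cells it was 1.004. The cells just below the threshold, with exactly 2 Mdm2 UMIs, gave 0.60, and those with exactly 3 gave 0.95.

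Of the growth arrest genes 9 of 10 measured members were higher, with a median log2 ratio of 1.07; without the 2 measured only through the Mdm2-high cells, 7 of 8 were, with 0.96. Plk2, a polo-like kinase, had 14.3 CPM in the 0-UMI cells, 74.2 CPM in the Mdm2-high cells and 141 CPM in the dTAG13 cells. Its ratio of Mdm2-high over 0-UMI cells was 5.19 (4.41 to 6.08), and 123 of the 301 cells held a Plk2 UMI. Btg2, an antiproliferative regulator of mRNA decay, had 11.8, 48.0 and 120 CPM in the same order, a ratio of 4.06 (3.32 to 4.93). Cdkn1a, which encodes the cyclin-dependent kinase inhibitor p21, had 57.3, 148 and 232 CPM, a ratio of 2.59 (2.32 to 2.88). Phlda3, an inhibitor of Akt signalling, had 52.7, 134 and 215 CPM, a ratio of 2.54 (2.26 to 2.84). For these genes the Mdm2-high cells lay between the 0-UMI cells and the dTAG13 cells. Sfn, which encodes 14-3-3 sigma, was the measured member that did not reach 1.5-fold, with a ratio of 1.28 (1.17 to 1.40).

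Among genes that feed back on p53, 5 of 7 measured members were higher, with a median of 0.65. Without the 3 measured only through the Mdm2-high cells, 4 of 4 were, with a median of 1.04. Trp53inp1, a cofactor in p53-dependent death and autophagy, had 23.2 CPM in 0-UMI cells, 75.5 CPM in Mdm2-high cells and 116 CPM in dTAG13 cells, a ratio of 3.25 (2.78 to 3.79). Ccng1, the cyclin that recruits a phosphatase to Mdm2, had 64.7, 133 and 232 CPM, a ratio of 2.05 (1.83 to 2.30). Mdm4, the Mdm2 paralog that binds and inhibits p53, had 65.4, 134 and 111 CPM, the same ratio of 2.05 (1.83 to 2.30). Here the Mdm2-high cells stood above the dTAG13 cells, by a ratio of 1.21. Ppm1d, a phosphatase that dampens p53 signalling, had a ratio of 1.57 (1.21 to 2.02).

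Of the cell death genes, 6 of 8 measured members were higher, with a median of 0.90. Without the 3 measured only through the Mdm2-high cells, 3 of 5 were, with a median of 0.65. Apaf1, the core of the apoptosome, had 7.18, 21.3 and 29.6 CPM in 0-UMI, Mdm2-high and dTAG13 cells, a ratio of 2.96 (2.18 to 3.94). Perp, a membrane protein of p53-dependent apoptosis, had 25.5, 73.8 and 194 CPM, a ratio of 2.90 (2.48 to 3.38). Bbc3, which encodes the BH3-only protein PUMA, had 12.3, 30.03 and 39.1 CPM, a ratio of 2.44 (1.90 to 3.10). Bax, the pore former of the mitochondrial outer membrane, differed little at 655, 730 and 769 CPM, a ratio of 1.11 (1.06 to 1.17). Pmaip1, which encodes NOXA, was under the level limit with 13 UMIs in the Mdm2-high cells, and stood at 1.85, 5.42 and 12.7 CPM.

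The repair list had 3 of 5 measured members higher and a median of 0.73, but 2 of the 5 were measured only through the Mdm2-high cells, and the other 3 gave 1 higher and 0.18. Ercc5, a nuclease of nucleotide excision repair, had a ratio of 2.76 (2.28 to 3.30), and Polk, a translesion polymerase, 2.32 (1.81 to 2.92). Pcna, the sliding clamp of replication, was at 154 CPM in 0-UMI cells and 145 CPM in Mdm2-high cells. In the metabolism list 1 of 5 was measured only through the Mdm2-high cells, and 2 of the 5 were higher, with a median of 0.32: Dcxr, an L-xylulose reductase, with a ratio of 2.92 (2.47 to 3.42), and Sesn2, a sestrin that restrains mTORC1, with 2.19 (1.72 to 2.76). Gpx1, a glutathione peroxidase, was at 1143 and 1142 CPM.

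The remaining p53 targets gave 5 of 6 measured members higher and a median of 1.41, but 5 of the 6 were measured only through the Mdm2-high cells. Zfp365, which protects genome stability, had 3.78 CPM in 0-UMI cells, 21.3 CPM in Mdm2-high cells and 37.9 CPM in dTAG13 cells, a ratio of 5.63 (4.11 to 7.57). Serpine2, a secreted protease inhibitor, had 10.1, 44.2 and 105 CPM, a ratio of 4.37 (3.54 to 5.35). Trp53 itself had 458, 493 and 456 CPM, and none of the 6 measured p53 partner genes differed by 1.5-fold. The partner list includes Trp53, its deubiquitinase Usp7 and the ribosomal proteins that bind Mdm2, and its median was 0.06.

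**Figure D2:**
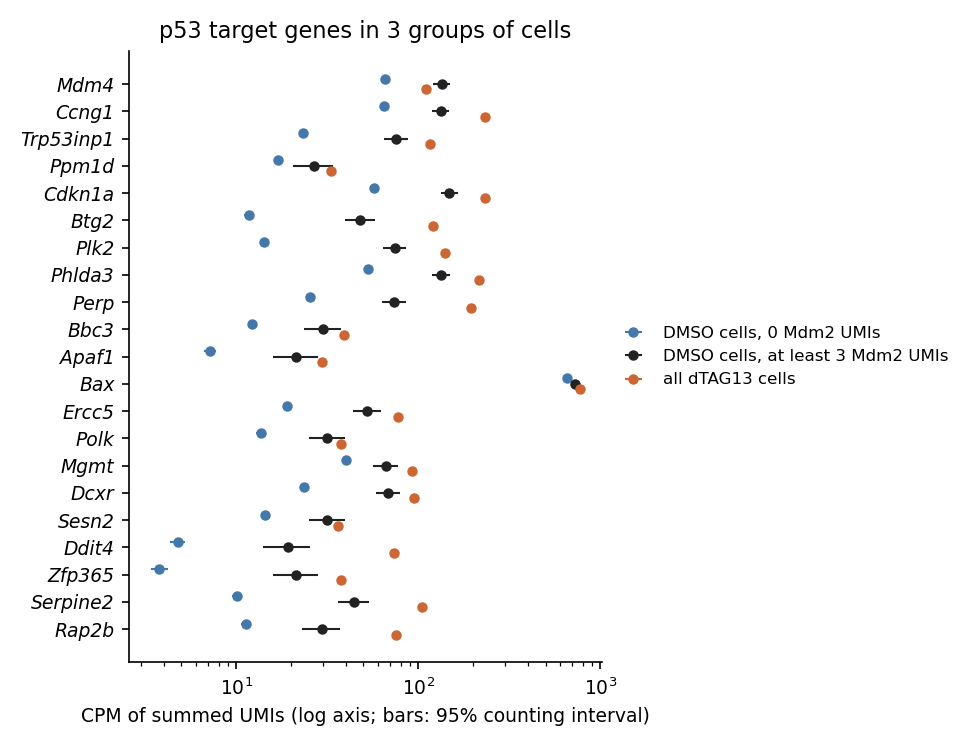
CPM of summed UMIs on a log axis for 21 p53 target genes, in DMSO cells with 0 Mdm2 UMIs, DMSO cells with at least 3 and all dTAG13 cells, with 95% counting intervals. For most genes shown the Mdm2-high cells lie between the other groups; Mdm4 is higher in them (134 CPM) than in dTAG13 cells (111 CPM), and Bax differs little.

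Over all measured genes, 242 were past 1.5-fold in favour of the Mdm2-high cells and 42 in favour of the 0-UMI cells. With at least 20 CPM in the 0-UMI cells, the counts were 112 and 42. Genes under 20 CPM there, among them Neurod1 and Ddit4l, were measured only through the Mdm2-high cells, where they had to be higher. The highest ratio under the naming limits was that of Neurod1, a neurogenic transcription factor, at 1.96 CPM in 0-UMI cells, 27.5 CPM in Mdm2-high cells and 44.5 CPM in dTAG13 cells. Its ratio was 14.0 (10.4 to 18.7), and its 66 UMIs came from 54 cells with at most 4 in 1 cell. Ddit4l, an inhibitor of mTOR signalling, had 13.7, 68.8 and 115 CPM, a ratio of 5.03 (4.25 to 5.92). Ptpn14, a phosphatase that restrains the coactivator YAP, had a ratio of 4.17 (3.15 to 5.43). Tmtc3, Pierce1, Rb1, Eng and Plod2 were also among the 15 highest, with ratios from 2.96 to 3.41. Rb1 encodes the retinoblastoma protein, and Eng a coreceptor for TGF-beta.

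The lowest ratios were smaller in size. Tcl1, a coactivator of Akt that is high in naive stem cells, had 48.4 CPM in 0-UMI cells and 22.5 CPM in Mdm2-high cells, a ratio of 0.47 (0.35 to 0.61). Mras, a Ras-related GTPase, had a ratio of 0.57 (0.45 to 0.72). The homeobox genes Rhox6 and Rhox5 had ratios of 0.51 (0.41 to 0.64) and 0.59 (0.46 to 0.74). How reads shared between Rhox genes were counted is not known, and 13 of the 70 Rhox5 UMIs came from 1 cell.

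Single cells decided some sums. Atf3, a stress-induced transcription factor, had 31 UMIs in the Mdm2-high cells, and 19 of these came from 1 cell. Eif1ad10, a gene chosen after its values were seen, had 142 UMIs, of which 128 came from 1 cell. No ratio is read from either.

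Against the dTAG13 cells, the Mdm2-high cells showed lower p53 target levels, while their Mdm2 level, set by the rule, was 1.25 times as high. Of 44 measured targets, 0 were higher and 14 lower by 1.5-fold or more, against 3.06% and 5.81% of all 5060 measured genes. Of the 44, 3 were measured only through the dTAG13 cells, where they had to be higher, and 1 only through the Mdm2-high cells. The median log2 ratio was -0.47, against -0.02 over all. Ddit4, an mTOR inhibitor of the metabolism list, had the lowest ratio of them under the naming limits, at 19.2 CPM against 73.4 CPM. It was measured only through the dTAG13 cells. Against only the dTAG13 cells that also had at least 3 Mdm2 UMIs, 21 of 45 were lower and 1 higher, where 7.25% and 3.93% of all genes were, and the median was -0.57. Of the 45, 4 were measured only through those dTAG13 cells. The dTAG13 cells were themselves above the 0-UMI cells, which both comparisons share: of 43 measured targets 35 were higher and 1 lower, where 11.4% and 4.36% of 5004 genes were, and the median was 1.40. Of the 43, 18 were measured only through the dTAG13 cells; the other 25 gave 18 higher, 1 lower and a median of 1.06.

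Over all genes, 155 were higher and 294 lower in the Mdm2-high than in the dTAG13 cells. Sct, which encodes the hormone secretin, was at 22.9 CPM in Mdm2-high and 121 CPM in dTAG13 cells, a ratio of 0.19. Phlda1 was at 9.18 against 38.2 CPM, and Nectin4, a cell adhesion protein, also at 9.18 against 35.2 CPM. Phlda1 and Nectin4 were measured only through the dTAG13 cells, where they had to be higher. In the other direction Sfrp1, which encodes a secreted inhibitor of Wnt ligands, stood at 32.1 CPM against 9.50 CPM, a ratio of 3.38. It was measured only through the Mdm2-high cells, where it had to be higher. Plac8, Mov10 and Tcf15 followed with ratios from 2.68 to 2.71. Tcf15, a transcription factor linked to exit from naive pluripotency, was at 93.0 CPM in Mdm2-high cells and 98.1 CPM in 0-UMI cells, but 34.7 CPM in dTAG13 cells.

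The same Mdm2 rule was then applied inside the dTAG13 library, which shares no cells with the DMSO comparison. There the 5316 cells with at least 3 Mdm2 UMIs were set against the 2077 with 0. The median cell had 8109.5 UMIs in the former and 5956 in the latter. Of the former 12.6% exceeded 2 times the median of their library, against 1.93% of the latter. No depth weighting or depth classes were applied to this comparison. Of 46 measured p53 targets 10 were at least 1.5-fold higher and 0 lower, against 1.85% and 0.523% of 4975 genes, and the median log2 ratio was 0.45. Of the 46, 5 were measured only through the cells with at least 3, where they had to be higher. Another 1 was measured only through the cells with 0. Plk2 was at 93.7 and 158 CPM and Cdkn1a at 180 and 258 CPM in the cells with 0 and with at least 3. Across the 41 p53 targets measured in both comparisons, Pearson's r between the log2 ratios was 0.78, and across all 4605 genes measured in both it was 0.61. These are correlations across genes, which are not independent replicates.

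To place single cells on a common depth, each was thinned to 3900 UMIs, which left out 14 of the 301 Mdm2-high cells, 1512 of the 0-UMI cells and 773 of the dTAG13 cells. The UMIs of 32 p53 list genes, without Mdm2, were then added per cell. These 32 were at least 1.5-fold higher in dTAG13 cells than in DMSO cells with 1 or 2 Mdm2 UMIs, so neither the Mdm2-high nor the 0-UMI cells chose them. The dTAG13 cells and the DMSO cells with 1 or 2 did choose them. Values of those cells below, such as the high dTAG13 median, are therefore tied to that choice and are given for scale. The median was 3 UMIs (quartiles 2 to 5) in 0-UMI cells, 7 (5 to 10) in Mdm2-high cells and 12 (9 to 16) in dTAG13 cells. Medians in DMSO cells with 1, 2, 3, 4 and 5 or more Mdm2 UMIs were 4, 6, 7, 8 and 8. The highest Mdm2-high cell reached 27.

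The groups overlapped at the level of cells. The 90th percentile of the 0-UMI cells was 7, and 48.1% of Mdm2-high cells (42.2 to 54.0) lay above it, against 8.5% of 0-UMI cells and 83.0% of dTAG13 cells. At or above the dTAG13 median of 12 were 18.1% of Mdm2-high cells (13.8 to 23.1) and 1.0% of 0-UMI cells. In the other direction, 36 Mdm2-high cells (12.5%) were at or below the 0-UMI median of 3.

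**Figure D3:**
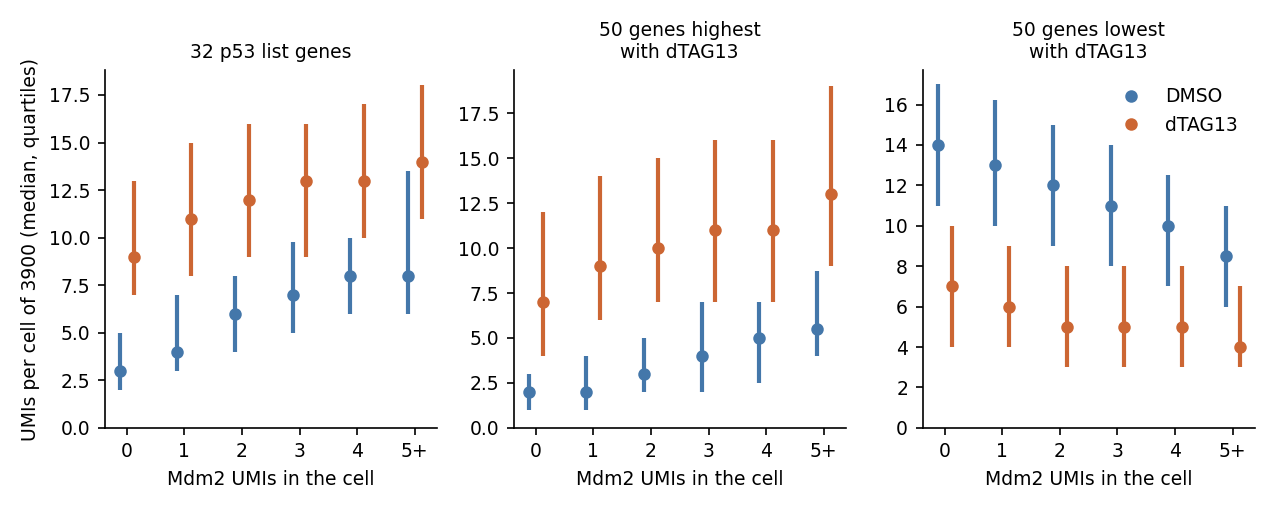
Median and quartiles of UMIs per cell, in cells thinned to 3900 UMIs, by Mdm2 UMIs in the cell, for 32 p53 list genes and for the 50 genes outside the p53 lists that were highest and the 50 that were lowest with dTAG13. In DMSO cells the p53 median goes from 3 at 0 Mdm2 UMIs to 8 at 5 or more, while dTAG13 cells with 0 Mdm2 UMIs have 9.

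How far the Mdm2-high cells resembled dTAG13 cells was measured on genes outside the p53 lists. The 50 genes highest and the 50 lowest with dTAG13 were taken against DMSO cells with 1 or 2 Mdm2 UMIs. The dTAG13 values of both sets are therefore tied to that choice and are given for scale. Of the 50 highest, 22 were measured in the DMSO comparison and 21 were at least 1.5-fold higher in Mdm2-high than in 0-UMI cells, with a median log2 ratio of 1.43, beside the 5.01% over all genes. Of the 22, 16 were measured only through the Mdm2-high cells, where they had to be higher; of the other 6, 5 were higher, with a median of 1.06. Of the 50 lowest, 49 were measured, 11 were at least 1.5-fold lower and 0 higher, with a median of -0.40. Per thinned cell, the highest set gave medians of 2, 5 and 10 UMIs in 0-UMI, Mdm2-high and dTAG13 cells, and the lowest set gave 14, 10 and 5. Only 9 thinned Mdm2-high cells (3.1%, 1.4 to 5.9) had reached the dTAG13 median in both sets, against 34.2% of dTAG13 cells and 0.1% of 0-UMI cells.

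The 15 nearest neighbours of each cell were found among all kept cells, of which 39.3% were dTAG13 cells, with Mdm2 and the p53 lists left out. Of the Mdm2-high cells 125 (41.5%) had 0 or 1 dTAG13 neighbours, 111 had 2 to 7 and 65 (21.6%, 17.1 to 26.7) had 8 or more; 12 had dTAG13 neighbours only. Among 0-UMI cells 89.3% had 0 or 1 and 1.15% had 8 or more. Of the dTAG13 cells 93.2% had 8 or more, and 142 (1.23%) had 0 or 1. Genes outside those lists that were also higher in the Mdm2-high cells, such as Neurod1 and Ddit4l, were not left out of this search.

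**Figure D4:**
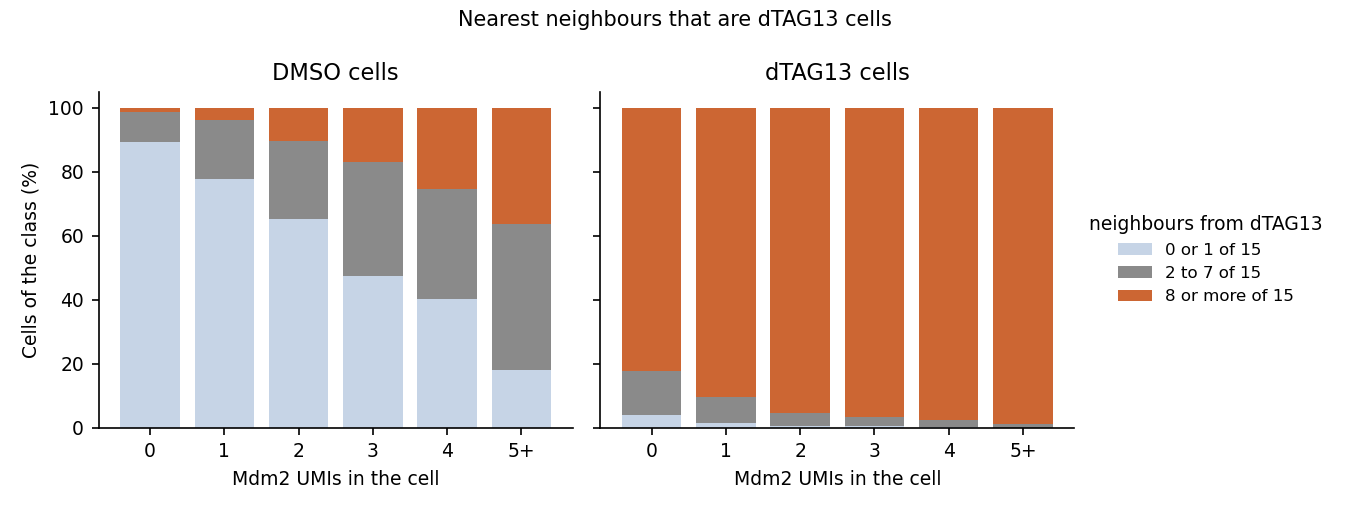
Share of cells (%) with 0 or 1, 2 to 7 and 8 or more of 15 nearest neighbours from the dTAG13 library, by Mdm2 UMIs in the cell, for DMSO cells and dTAG13 cells. In DMSO cells the share with 8 or more is 1.15% at 0 Mdm2 UMIs and 21.6% over the cells with at least 3.

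Clustering of both libraries gave 15 clusters, 4 of them mostly of dTAG13 cells. Those 4 held 69 Mdm2-high cells (22.9%) and 512 DMSO cells in all, so that 13.5% of DMSO cells there were Mdm2-high, against 1.34% in the other 11 clusters. The remaining 232 Mdm2-high cells were spread over DMSO clusters, with 72 in the one led by Sfrp1, Mras and Tcl1. Among the mostly dTAG13 clusters, 27 were in the one led by Neurod1 and Mlana and 6 in the one led by Sct, Atf3 and Nectin4.

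The p53 targets were also compared within cells of like neighbourhood. Among DMSO cells with 0 or 1 dTAG13 neighbours, 125 Mdm2-high cells stood against 12513 0-UMI cells. There 21 of 35 measured p53 targets were at least 1.5-fold higher, where 3.92% of all 4766 genes were and 1.49% were lower, and the median was 0.67. Of the 35, 11 were measured only through the Mdm2-high cells; of the other 24, 11 were higher, with a median of 0.57. Plk2 had a ratio of 4.53 (3.36 to 5.997), Phlda3 2.43 (2.01 to 2.91) and Cdkn1a 2.30 (1.92 to 2.75). Neurod1, on no p53 list and under the 20 CPM limit in these cells, had 11.4 (6.18 to 19.7). In the same cells the 50 genes lowest with dTAG13 had a median of -0.19, with 2 of 50 at least 1.5-fold lower. The 50 highest with dTAG13 had 8 of 11 measured genes higher and a median of 0.97, and the 6 of these with at least 20 CPM in the 0-UMI cells had 3 higher and a median of 0.57. Sfrp1 had a ratio of 0.92 (0.67 to 1.23) and Rhox9 0.99 (0.77 to 1.26). Neither gene set, which together include Neurod1, Sfrp1 and Rhox9, was left out of the neighbour search. Their values here are therefore not independent of how the class was formed.

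With 2 to 7 dTAG13 neighbours, 17 of 39 p53 targets were higher, where 3.79% of genes were and 3.29% were lower, and the median was 0.50; with at least 20 CPM in the 0-UMI cells, 13 of 35 were, with 0.44. With 8 or more, 15 of 42 were higher, where 11.2% of genes were and 8.48% were lower, and the median was 0.38; with at least 20 CPM in the 0-UMI cells, 9 of 35 were, with 0.32. That last comparison rests on 65 Mdm2-high and 161 0-UMI cells. The 0-UMI cells with such neighbours themselves had a median of 8 UMIs of the 32 p53 genes per thinned cell, against 11 in the Mdm2-high cells beside them. Carry-over of dTAG13 cells into the DMSO library was not tested. The class with 0 or 1 dTAG13 neighbours holds 84 Mdm2-high cells with none.

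**Figure D5:**
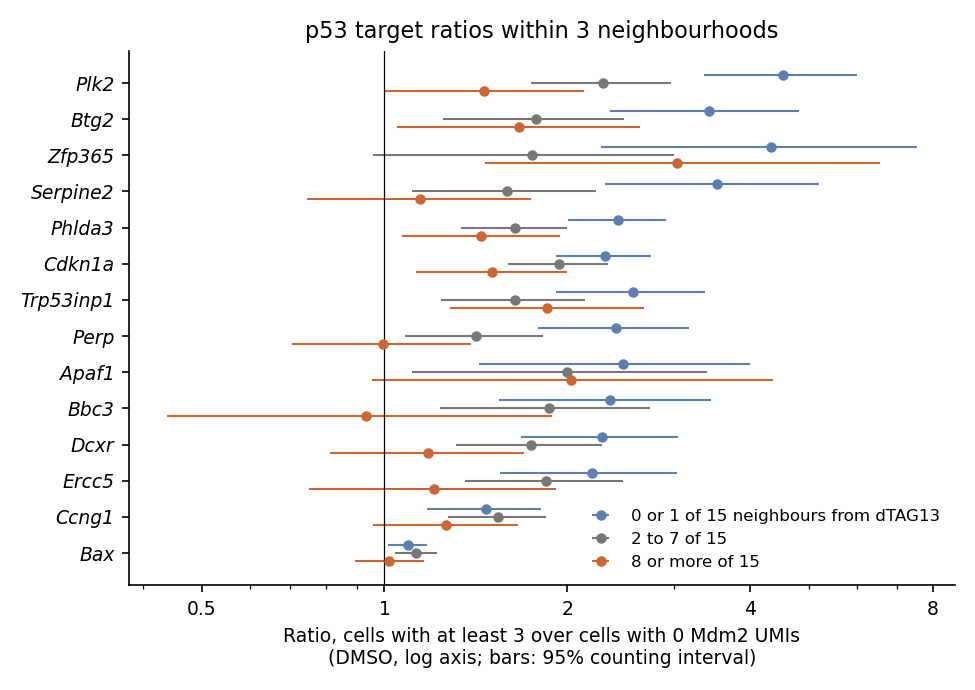
Ratio of CPM, Mdm2-high over 0-UMI DMSO cells, on a log axis with 95% counting intervals, for 14 p53 targets in cells with 0 or 1, 2 to 7 and 8 or more dTAG13 neighbours of 15. Plk2 has its highest ratio, 4.53, in the cells with 0 or 1, and Bax stays near 1 in each.

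Pluripotency genes differed little. None of 10 measured shared pluripotency genes reached 1.5-fold: Pou5f1 was at 616 CPM in 0-UMI and 567 CPM in Mdm2-high cells, and Sox2 at 286 and 324 CPM. Nanog was at 87.0 and 86.8 CPM. Of 17 naive genes 1, Tcl1, was lower by that much, and the median was -0.18. Zfp42, a naive marker, was at 631 and 496 CPM. Tex10 was at 80.8 CPM in 0-UMI, 85.9 CPM in Mdm2-high and 64.7 CPM in dTAG13 cells, and 0 of 7 genes of its complex and the rixosome differed by 1.5-fold.

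S phase genes differed little between Mdm2-high and 0-UMI cells, and most G2 and M phase genes were slightly higher in the Mdm2-high cells. Of 28 measured S phase genes 0 were higher or lower by 1.5-fold, with 14 above 1. Against the dTAG13 cells 5 of 28 S phase genes were at least 1.5-fold higher in the Mdm2-high cells, where 3.06% of all genes were. The median of the 28 was 0.39, and 3 of them were measured only through the Mdm2-high cells, where they had to be higher. Of 30 G2 and M phase genes 28 had a ratio above 1 but only Bub1b, a spindle checkpoint kinase, passed 1.5-fold at 1.57 (1.36 to 1.81), and the median was 0.27. Median S phase UMIs per thinned cell were 10 in 0-UMI, 11 in Mdm2-high and 8 in dTAG13 cells. For G2 and M phase genes they were 16, 17 and 16.

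Of the stress lists, 4 of 7 measured immediate-early genes were higher, with a median of 0.67, beside 5.01% of all genes. Of the 7, 3 were measured only through the Mdm2-high cells, and the other 4 gave 1 higher and 0.37; Btg2 is also on the p53 list. With 0 or 1 dTAG13 neighbours 1 of 5 was higher, with a median of 0.15, and with 2 to 7 it was 2 of 7, with -0.15. In each class 1 gene was measured only through the Mdm2-high cells. Without it, 0 of 4 and 1 of 6 were higher, with medians of 0.07 and -0.21. Jun was at 13.8, 24.6 and 74.9 CPM in 0-UMI, Mdm2-high and dTAG13 cells, and Egr1 at 13.3, 21.3 and 11.8 CPM. In cells with 0 or 1 dTAG13 neighbours the Egr1 ratio was 0.88 (0.45 to 1.55). Integrated stress response genes gave 1 of 7 higher and a median of 0.05. Of these 7, 2 were measured only through the Mdm2-high cells, and the other 5 gave 0 higher and -0.07. The unfolded protein response gave 0 of 9 and -0.10 (0.01 with 0 or 1 dTAG13 neighbours), and heat shock 1 of 9 and 0.03. Ribosome biogenesis genes gave 0 of 29 and -0.04.

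Markers of other cell types were mostly below the level limit. No primitive streak or nascent mesoderm gene was measured, and their summed levels were 7.51 and 11.7 CPM, against 4.62 and 14.3 CPM in 0-UMI cells. The trophoblast list had 3 measured members, of which Rhox6 and Rhox9 were lower and Tfap2c had a ratio of 1.35 (1.11 to 1.62). With 0 or 1 dTAG13 neighbours 0 of 3 were lower, with a median of -0.01. With 2 to 7 it was 3 of 5, with -1.60, and 3 of these 5 were measured only through the 0-UMI cells. With 8 or more it was 0 of 4, with 0.25, and 2 of these 4 were measured only through the Mdm2-high cells. Of 2 measured extraembryonic endoderm genes, Lamb1 was higher at 1.61 (1.27 to 2.01) and Sparc was at 0.92 (0.83 to 1.02). The 2-cell-like, neural ectoderm, definitive endoderm and fibroblast lists each had 1 measured gene and 0 past 1.5-fold.

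The genes whose counts followed Mdm2 most closely were sought over 16123 thinned DMSO cells, among 5579 genes. The highest Pearson correlations were those of Plk2 (0.142), Sdc4 (0.130), Cdkn1a (0.123), Trp53inp1 (0.118), Phlda3 (0.112) and Mdm4 (0.105). Sdc4 encodes a heparan sulfate proteoglycan; it is on no p53 list and is among the 50 genes highest with dTAG13. Over the 13894 of these cells with 0 or 1 dTAG13 neighbours the values were lower: 0.105 for Plk2, 0.094 for Phlda3, 0.083 for Cdkn1a, 0.079 for Mdm4, 0.078 for Sdc4 and 0.076 for Trp53inp1. These values share cells and depth, are weak, and carry no test.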

How the data were processed

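Single-cell RNA-seq of 1 DMSO and 1 dTAG13 library was analysed. The values are UMI counts, whole numbers per gene and barcode, as deposited. Per the file headers, the authors counted with Cell Ranger 8.0.1; the labels' protocols name a 10x Chromium 3′ kit. Seurat 5.0.1, R 4.3.2 and mm10 are named without a role in the submitters' processing notes. The filter on barcodes behind the deposited matrices is not given here in the sources used. Counts of 26 symbols with 2 identifiers were summed. The table lists 33696 gene identifiers.

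Cells under 500 genes or above 10% mitochondrial UMIs were left out. No doublet caller was run and no doublets were removed. UMIs were summed per group of cells and scaled to CPM. Intervals at 95% are exact Poisson for CPM, exact conditional binomial for ratios and Clopper-Pearson for shares. A limit for a count of 0 is 3 counts. With 1 library per group no model was fitted and no p-value computed. A gene is measured at 20 CPM in 1 or both groups and is counted as higher or lower past 1.5-fold. Of 73 p53 targets listed without Mdm2, 72 were in the files. Neighbours (15) and clusters (leidenalg 0.10.2, resolution 1) used 2000 variable genes without the p53 lists, and 30 principal components, without integration, with scikit-learn 1.9.0. The computations were tested on simulated data and run in Python 3.11.15.

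The cells and gene lists were chosen with earlier results of these data known. Named genes are the 15 highest and 15 lowest ratios over 0-UMI cells and the 10 highest and 10 lowest over dTAG13 cells (with a UMI in at least 5% of cells of the higher group, leaving out Mdm2, predicted, ribosomal protein and mitochondrial genes), up to 4 measured members per list with the largest absolute log2 ratio, the 5 highest and 5 lowest genes of dTAG13 cells, the 10 genes most correlated with Mdm2, and Mdm2, Trp53, Cdkn1a, Ccng1, Bax, Pmaip1, Btg2, Plk2, Perp, Tex10, Pou5f1 and Nanog. Not every gene selected is described. Sfn, Pcna, Gpx1, Usp7 and Eif1ad10 were chosen after their values were seen. Alternatives varied the Mdm2 threshold, the filters, depth, scaling, doublets and neighbours.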

Additional observations from a re-analysis of the deposited data

How the results depend on the processing

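No paired analysis was possible because each group is 1 library. None of the medians recomputed under the alternatives (the p53 lists against 0-UMI and dTAG13 cells, and the 50 genes highest and lowest with dTAG13) changed sign. Other lists were recomputed only by dTAG13 neighbours and at 20 CPM in the comparison cells, and single genes only by neighbours. At 20 CPM in the comparison cells the integrated stress response median changed sign, as given above. In some neighbour classes the immediate-early, unfolded protein response, integrated stress response, heat shock, S phase, ribosome biogenesis and shared pluripotency medians changed sign. So did Egr1 and the formative, germ cell, trophoblast, neural ectoderm, 2-cell-like and fibroblast medians, each of these lists with few measured genes. The p53 median of Mdm2-high over 0-UMI cells stayed between 0.67 and 1.12 in 18 alternatives. With at least 2, 4 or 5 Mdm2 UMIs the Mdm2-high cells numbered 955, 111 and 44, and 125 with 0 or 1 dTAG13 neighbours. The 30 higher p53 targets became 14 at a 50 CPM limit, 47 with no limit and 16 at 20 CPM in the comparison cells. The 242 higher genes became 107, 483 and 813 at those thresholds, 483 at 10 CPM, 70 at 50 CPM, 3519 with no limit, 161 without the cells with 8 or more dTAG13 neighbours and 112 at 20 CPM in the comparison cells. The 42 lower genes became 4, 143 and 378 at those thresholds, 19 after thinning, 68 without cells above 2 times the median UMIs, 116 at 10 CPM, 13 at 50 CPM, 1050 with no limit and 71 with 0 or 1 dTAG13 neighbours. The p53 median against dTAG13 cells was -0.67 at 2 and -0.25 at 5 Mdm2 UMIs, -0.60 without the cells with 8 or more dTAG13 neighbours, -0.63 in the clusters not mostly dTAG13 and -0.74 with 0 or 1 dTAG13 neighbours. The median of the 50 genes highest with dTAG13 was 1.03, 1.77 and 1.98 at 2, 4 and 5 Mdm2 UMIs, 1.06 at 20 CPM in the comparison cells and 0.97 with 0 or 1 dTAG13 neighbours. That of the 50 lowest was -0.24 at 2 and -0.69 at 5 Mdm2 UMIs, -0.29 after thinning and -0.19 with 0 or 1 dTAG13 neighbours. The share with 8 or more dTAG13 neighbours was 13.8%, 29.7% and 36.4% at 2, 4 and 5 Mdm2 UMIs, 14.2% after thinning and 5.17% in the clusters not mostly dTAG13. Higher thresholds leave fewer cells, and higher level limits fewer genes; the cause of the other shifts was not tested. The 4 alternatives (the limit in the comparison cells, the clusters, the depth limit and the neighbours) were chosen after seeing the data.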
